A study of Homo sapiens with 18 samples.

Results

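The genes of the proteasome and of its assembly were followed through RNA and ribosome footprints of MDA-MB-231 cells, an established human breast cancer line, after knockdown of fibrillarin. Members were picked by gene symbol, with earlier results of these data known. They were the subunit families PSMA, PSMB, PSMC and PSMD, activators PSME1 to PSME4, the PI31 gene PSMF1 and chaperone genes PSMG1 to PSMG4. Of the 17017 genes in the deposited table, 47 matched. By role they were 7 alpha ring genes, 3 catalytic beta genes, 4 structural beta genes, 4 immunoproteasome and thymoproteasome beta genes, 6 ATPases and 11 other subunits of the 19S cap, 3 chaperones of the cap's base, 5 genes for other activators and PI31, and 4 chaperones of the 20S core. The first 3 of these groups are called the constitutive core (14 genes), and the 2 groups of cap subunits the cap (17 genes).

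Fibrillarin (FBL) is the enzyme that methylates the ribose of ribosomal RNA. Every group was transduced with a lentiviral pLKO.1 vector and kept in puromycin, then given cycloheximide before lysis. The vector coded for a scramble hairpin in SC and for a hairpin to FBL mRNA in SH2 and in SH3, and the labels name no clone, so each group is read as a transduced pool. Each group had 3 replicates, and from each lysate a cytoplasmic RNA library (IN) and a library of RNase I footprints from monosomes (RPF) were counted, 18 libraries in all. The labels do not say that replicates were separate cultures, so the p-values measure only the spread between these samples, which may be technical. In such bulk libraries, fewer cells carrying an mRNA and less of it per cell cannot be told apart.

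The proteasome degrades proteins marked with ubiquitin. Its barrel, the 20S core, stacks rings of alpha subunits around rings of beta subunits, and PSMB5, PSMB6 and PSMB7 carry the active sites inside, while the 19S cap binds ubiquitin, unfolds the substrate with its ring of ATPases and feeds it into the barrel. In cells exposed to interferon PSMB8, PSMB9 and PSMB10 take the places of PSMB5, PSMB6 and PSMB7 in new particles, the immunoproteasome, which is known for cutting peptides for display on MHC class I.

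Counts assigned to genes summed to between 23469830 and 27629488 per RNA library and between 1662705 and 6098648 per footprint library. FBL stood at 395, 349 and 421 CPM (counts scaled to a common library total, with TMM factors) in SC RNA, at 1.26, 4.51 and 11.2 in SH2 and at 3.36, 4.15 and 2.95 in SH3. Among genes that mark the line, SC RNA held mesenchymal VIM at a mean of 5579 CPM and AXL at 1487, while the estrogen receptor ESR1 (0.027), the progesterone receptor PGR (0.067) and the epithelial cadherin CDH1 (0.34) were near 0, and EPCAM stood at 5.66. Of the 5 genes listed as markers of the line, 2 were lower in the RNA of each hairpin and 1 was higher in SH2. CAV1 was lower in both (-0.60 and -1.17). Summed RNA of the 6 luminal and epithelial markers was 579 to 619 CPM in SC, 666 to 821 in SH2 and 727 to 804 in SH3, with SC under both hairpins, and KRT18 rose by 0.41 and 0.46. Nearly all of the SC sum came from KRT18 and ERBB2, so not all of the 6 were low in SC. The part of these markers in the results that follow was not tested. Of markers of other cells, SC RNA held PTPRC at 1.35, CD14 at 2.61 and PECAM1 at 2.65 CPM. Changes below are log2 fold changes from edgeR's quasi-likelihood test, with Benjamini-Hochberg adjustment over all genes tested, and a gene is called at an adjusted p under 0.05. Rose and fell are used of called changes only. The SC libraries are the reference of both comparisons, so the SH2 and SH3 changes are not independent of each other.

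The promoters of PSMB8, PSMB9 and PSMB10 are shown because the RNA of these 3 genes rose in both hairpins. RefSeq promoter entries (GRCh38.p14) gave the 250 bases before the first listed start of 41 of the 47 members. Capitals mark matches, on either strand, to the core of the interferon-stimulated response element (GAAA, any 2 bases, GAAA), the gamma-activated site (TTCNNNGAA) or an NF-kB site (GGG, any 2 bases, TTTCC). TAP1, the peptide transporter gene beside PSMB9, and PSME2, an activator gene whose RNA rose in SH3 and was not called in SH2, are shown for comparison. Each line runs 5′ to 3′ on the gene's own strand.
PSMB8: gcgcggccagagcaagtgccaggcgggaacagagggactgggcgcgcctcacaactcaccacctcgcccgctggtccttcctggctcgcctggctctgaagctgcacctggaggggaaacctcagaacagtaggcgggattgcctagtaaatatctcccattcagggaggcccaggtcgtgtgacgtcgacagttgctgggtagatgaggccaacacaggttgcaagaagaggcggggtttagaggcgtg
PSMB9: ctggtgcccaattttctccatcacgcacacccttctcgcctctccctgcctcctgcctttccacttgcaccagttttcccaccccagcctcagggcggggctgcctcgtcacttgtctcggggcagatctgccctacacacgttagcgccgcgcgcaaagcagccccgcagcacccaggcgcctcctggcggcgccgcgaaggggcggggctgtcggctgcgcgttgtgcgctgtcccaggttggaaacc
TAP1: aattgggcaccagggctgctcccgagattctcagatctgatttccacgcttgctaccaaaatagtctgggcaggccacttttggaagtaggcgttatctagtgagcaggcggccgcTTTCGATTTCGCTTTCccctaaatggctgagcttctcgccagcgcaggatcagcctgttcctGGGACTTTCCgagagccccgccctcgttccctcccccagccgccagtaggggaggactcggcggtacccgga
PSMB10: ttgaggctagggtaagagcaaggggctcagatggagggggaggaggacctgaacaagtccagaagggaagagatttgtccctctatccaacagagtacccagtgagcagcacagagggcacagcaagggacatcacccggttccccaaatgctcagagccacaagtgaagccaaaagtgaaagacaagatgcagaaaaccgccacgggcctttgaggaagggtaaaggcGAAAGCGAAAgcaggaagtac
PSME2: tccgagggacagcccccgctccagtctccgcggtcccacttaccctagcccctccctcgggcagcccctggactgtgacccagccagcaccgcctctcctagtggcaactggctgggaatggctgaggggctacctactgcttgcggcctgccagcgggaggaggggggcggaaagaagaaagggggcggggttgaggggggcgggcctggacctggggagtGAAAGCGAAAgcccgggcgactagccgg
The PSMB8 window is chr6:32844680-32844929 on the minus strand, PSMB9 chr6:32853942-32854191 on the plus strand, TAP1 chr6:32853705-32853954 on the minus strand, PSMB10 chr16:67936851-67937100 on the minus strand and PSME2 chr14:24146611-24146860 on the minus strand. PSMB9 and TAP1 point away from each other, and their windows share 13 bases. The same 10 letters, GAAAGCGAAA, stood 21 to 12 bases before the start of PSMB10, 28 to 19 bases before that of PSME2 and 33 to 24 bases before that of PSMG4. In the TAP1 window a pair of overlapping matches lay on the opposite strand, 134 to 119 bases before the start. GGGACTTTCC lay nearer to the TAP1 start, 72 to 63 bases before it. The windows of PSMB8 and PSMB9 held none of the 3 motifs. Over all members with an entry, 5 of 41 (12.2%) held the interferon-stimulated core, against 3.02% of 35116 promoter entries of the same length. Beside PSMB10, PSME2 and PSMG4 these were PSMA4 (GAAAATGAAA) and PSMB4 (GAAAAAGAAA). PSMA4 fell in SH2 RNA and in SH3 footprints, and PSMB4 was not called against SC. The core of the antioxidant response element, TGACNNNGC, through which NFE2L1 acts on proteasome genes, was in 11 of 41 (26.8%) against 10.9% of entries. It was in 0 of 6 alpha ring and 0 of 6 ATPase promoters. In all, 7 motifs were searched. The ETS core (CCGGAAG) was in 22% of members against 8.52% of entries, and the CCAAT box in 43.9% against 32%. The gamma-activated site was in 9.76% against 6.57%, the NF-kB site in 2.44% against 1.73% and the cyclic AMP response element (TGACGTCA) in 0% against 1.65%. A match describes letters, not binding.

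Of the 47 members, 46 passed the filter on low counts in each measure. The thymus subunit gene PSMB11 had 0 to 2 counts per RNA library and 0 in each footprint library. In RNA, 10 members rose and 13 fell in SH2, where 61.4% of 12710 genes were called (31.1% higher, 30.4% lower). In SH3, 11 rose and 10 fell, where 53.0% were called (27.8% higher, 25.2% lower). In both hairpins 7 rose and 8 fell, beside 37.9% of genes called in the same direction (19.6% higher, 18.2% lower), and 0 moved in opposite directions, beside 1.92% of genes. The median log2 change of members in RNA was -0.05 in SH2 and 0.05 in SH3, against 0.01 and 0.03 over all genes. In footprints 7 members rose and 11 fell in SH2, where 44.2% of 10345 genes were called (21.0% higher, 23.2% lower). In SH3, 3 rose and 12 fell, where 35.9% were called (16.9% higher, 19% lower). In both hairpins 3 rose and 6 fell in footprints, beside 22.9% of genes called in the same direction (10.8% higher, 12.0% lower), and 0 moved in opposite directions, beside 0.880%. Median footprint changes were -0.17 in SH2 and -0.13 in SH3, against 0.00 and -0.01 over all genes. Among called genes the median absolute log2 change in RNA was 0.47 for members and 0.72 for all genes in SH2, and 0.38 and 0.64 in SH3. Genes were not matched for counts, so these medians do not show that members changed less than other genes. Members past a change of 1 in RNA numbered 4 in SH2 (PSMA1, PSMB2, PSMB9 and PSMB10), where 18.6% of genes were past it, and 0 in SH3, where 13.2% were. The members took 0.828% to 0.911% of the counts of an RNA library. Of footprint counts they took 1.34% to 1.39% in SC, 1.18% to 1.20% in SH2 and 1.20% to 1.23% in SH3, so that the SC libraries did not overlap with either hairpin's. Summed member footprints averaged 13880, 12090 and 11770 CPM in SC, SH2 and SH3, of which PSMD2 alone made up 2147, 1326 and 1355. The share therefore does not stand for the members as a whole.

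**Figure D1:**
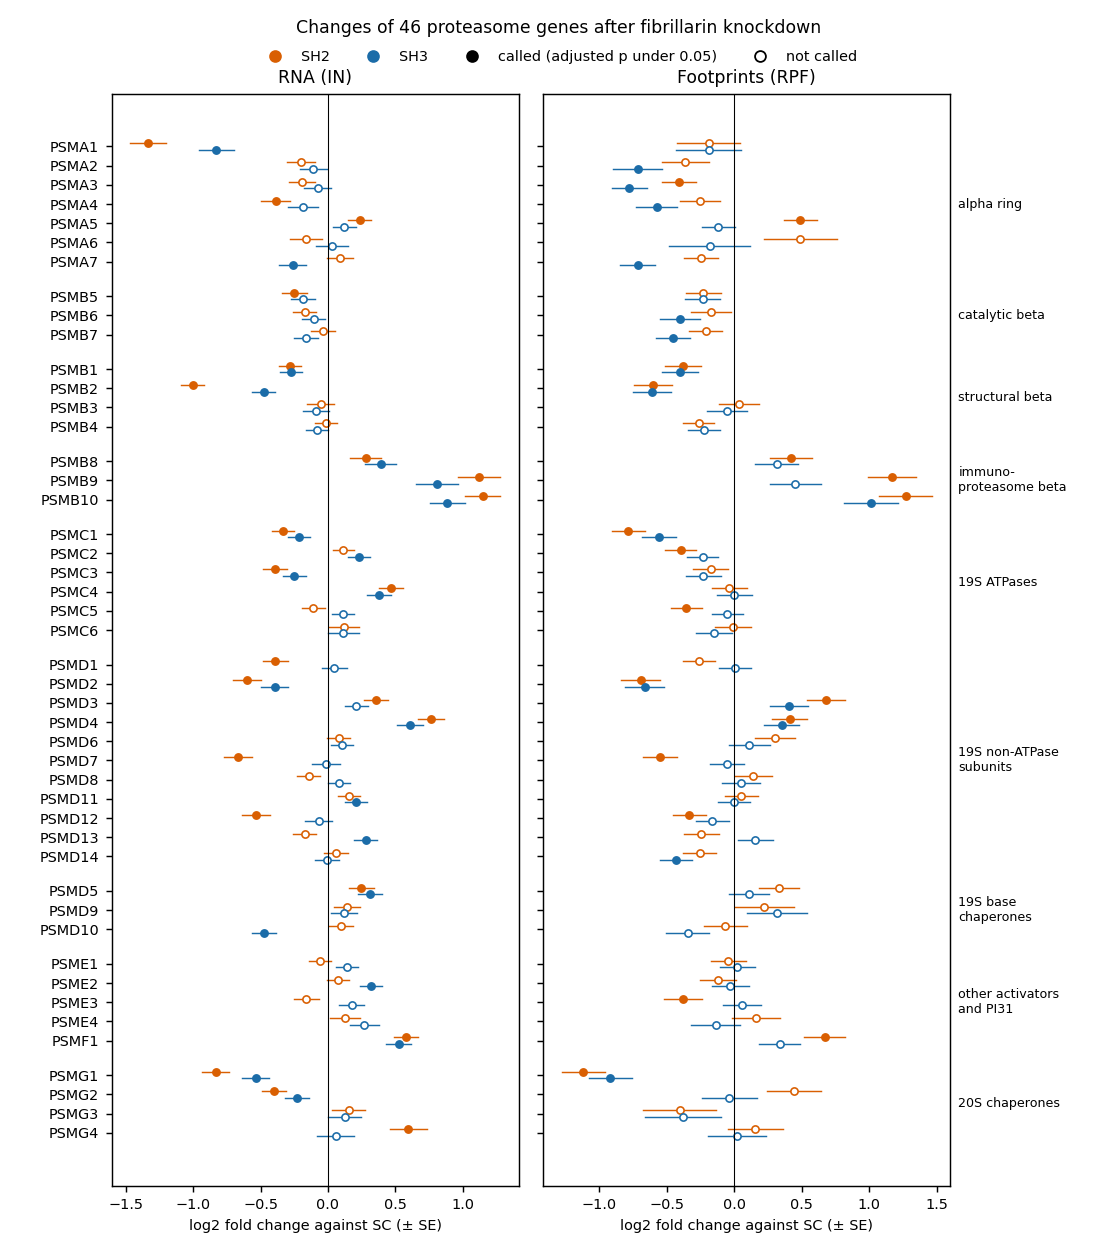
Log2 fold change against SC (horizontal axis, ± SE) of the 46 members tested, grouped by role, for RNA (left) and footprints (right), with SH2 in orange, SH3 in blue and filled points where the change was called. PSMB9 and PSMB10 stand to the right in RNA, and in SH3 footprints each of the 14 constitutive core genes lies left of 0.

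The 3 immunoproteasome genes with counts rose in the RNA of both hairpins. PSMB10, the inducible counterpart of PSMB7, stood at 11.7, 13.4 and 13.3 CPM in SC RNA, at 28.8, 27.6 and 28.9 in SH2 and at 24.4, 27.1 and 19.5 in SH3. Both hairpins lay above SC with no overlap, and the 3 SH2 libraries lay close together. Its RNA rose by 1.15 (edgeR: SE 0.13, adjusted p 4.64e-06) in SH2 and by 0.89 (edgeR: SE 0.13, adjusted p 7.65e-05) in SH3. Its footprints were at 17.4, 10.5 and 18.8 CPM in SC, 42.2, 36.1 and 38.9 in SH2 and 31.6, 32.9 and 33.3 in SH3, again with no overlap. They rose by 1.27 (edgeR: SE 0.19, adjusted p 9.69e-05) and 1.01 (edgeR: SE 0.20, adjusted p 0.00115).

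PSMB9, the counterpart of PSMB6, stood at 19.1, 22.9 and 15.9 CPM in SC RNA, at 50.5, 41.1 and 34.7 in SH2 and at 37.3, 33.8 and 30.1 in SH3. Each hairpin library lay above each SC library, and the hairpins overlapped with each other. The RNA rose by 1.12 (edgeR: SE 0.16, adjusted p 3.06e-05) and 0.81 (edgeR: SE 0.16, adjusted p 0.000686). PSMB9 footprints were at 17.7, 25.7 and 23.4 CPM in SC, 52.6, 52.9 and 42.4 in SH2 and 28.1, 32.2 and 29.5 in SH3. SH2 stood highest and SH3 in between, with no overlap among the 3 groups. The footprints rose by 1.17 in SH2 (edgeR: SE 0.18, adjusted p 0.000102), while the SH3 difference of 0.45 missed the threshold (edgeR: SE 0.19, adjusted p 0.0730). Over 13 alternatives the adjusted p of that SH3 difference ran from 0.0361 with plain library totals to 0.224, and without SC replicate 2 the difference was 0.55 and called. The hairpins differed directly by 0.72 in PSMB9 footprints (edgeR: SE 0.18, adjusted p 0.0100).

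PSMB8, the counterpart of PSMB5, was the most counted of the 3 and moved least. Its RNA was at 52.0, 50.4 and 52.4 CPM in SC, 74.6, 56.4 and 57.0 in SH2 and 74.0, 64.7 and 64.3 in SH3. No hairpin library fell within the SC range, and replicate 1 was the highest in SH2 and in SH3. The RNA rose by 0.28 (edgeR: SE 0.12, adjusted p 0.0469) and 0.39 (edgeR: SE 0.12, adjusted p 0.0108). The SH2 call was lost in 7 of 12 alternatives, among them without each SC replicate in turn and without SH2 replicate 1, with adjusted p-values up to 0.279, and the SH3 call without SH3 replicate 1 (edgeR adjusted p 0.0870). In footprints it stood at 42.5, 54.8 and 47.0 CPM in SC, 61.1, 70.2 and 59.9 in SH2 and 50.4, 63.3 and 63.1 in SH3, so SH2 lay above SC and SH3 overlapped with it. They rose by 0.42 in SH2 (edgeR: SE 0.16, adjusted p 0.0369, up to 0.137 over 13 alternatives, lost without SC replicate 1, SC replicate 3 or SH2 replicate 2). The SH3 value was 0.31 (edgeR: SE 0.16, adjusted p 0.133). By contrast, PSMB9 and PSMB10 kept their calls in each alternative. The summed RNA of the 3 genes was 83.7 ± 2.67 CPM for SC, 133 ± 18.1 for SH2 and 125 ± 10.9 for SH3, and their summed footprints were 86.0 ± 7.29, 152 ± 9.61 and 121 ± 9.94 (SD, n = 3 each).

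The constitutive catalytic genes did not rise with their counterparts. PSMB5, the chymotrypsin-like subunit, stood at 203, 185 and 214 CPM in SC RNA, 178, 158 and 171 in SH2 and 175, 186 and 169 in SH3. SH2 lay under SC, and SH3 overlapped with SC through a single library. The RNA fell by 0.25 in SH2 (edgeR: SE 0.09, adjusted p 0.0280), a call lost without SC replicate 3 or SH2 replicate 2 (edgeR adjusted p up to 0.147 over the alternatives), and the SH3 value was -0.18. PSMB5 footprints were at 236, 300 and 286 CPM in SC, 229, 230.1 and 241 in SH2 and 231, 238 and 228 in SH3. Their differences of -0.23 in each hairpin were not called. PSMB6, the caspase-like subunit, had RNA values of 200, 194 and 210 CPM in SC, 182, 174 and 179 in SH2 and 180, 199 and 183 in SH3, with no call. Its footprints went from 184, 198 and 221 CPM to 196, 157 and 184 in SH2 and 132, 144 and 180 in SH3. SH3 lay under SC with no overlap, by -0.40 (edgeR: SE 0.15, adjusted p 0.0433), but the call was lost in 6 of 13 alternatives (edgeR adjusted p up to 0.179), among them without SC replicate 2 or 3 and without SH3 replicate 1 or 2. PSMB7, the trypsin-like subunit, had 326, 291 and 315 CPM in SC RNA, 310, 303 and 296 in SH2 and 269, 292 and 272 in SH3, also with no call. PSMB7 footprints stood at 524, 474 and 458 CPM in SC, 424, 427 and 406 in SH2 and 344, 390 and 327 in SH3. SH2 and SH3 lay under SC, and the fall in SH3 was 0.46 (edgeR: SE 0.12, adjusted p 0.00961, 0.0597 without SH3 replicate 3). The SH2 value was -0.21 (edgeR adjusted p 0.176).

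The log2 ratio of each inducible subunit to the one it replaces was higher in every SH2 and SH3 library than in every SC library, in RNA and in footprints. PSMB10 to PSMB7 went from -4.60 ± 0.18 in SC RNA to -3.41 ± 0.05 in SH2 and -3.57 ± 0.21 in SH3, and from -5.00 ± 0.45 to -3.43 ± 0.12 and -3.44 ± 0.14 in footprints. PSMB9 to PSMB6 went from -3.40 ± 0.32 to -2.10 ± 0.26 and -2.48 ± 0.18 in RNA, and from -3.19 ± 0.22 to -1.86 ± 0.27 and -2.33 ± 0.24 in footprints. PSMB8 to PSMB5 went from -1.96 ± 0.08 to -1.44 ± 0.17 and -1.39 ± 0.14 in RNA, and from -2.51 ± 0.08 to -1.88 ± 0.15 and -1.99 ± 0.19 in footprints (SD, n = 3 each). These ratios are of counts not corrected for transcript length, so they compare libraries and not the amounts of the 2 genes, and they carry no test.

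**Figure D2:**
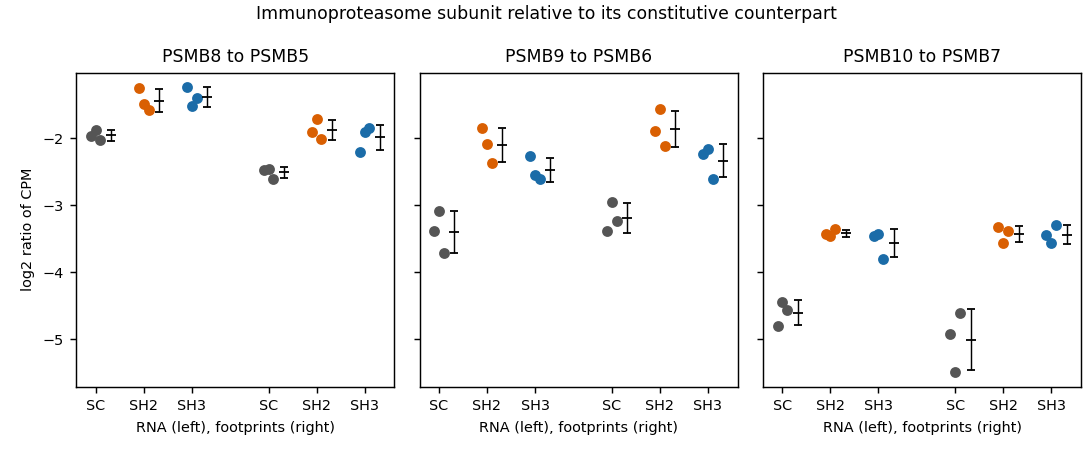
Log2 ratio of CPM (vertical axis) of PSMB8 to PSMB5, PSMB9 to PSMB6 and PSMB10 to PSMB7 in each library, RNA at the left and footprints at the right of each panel, with dots for libraries and bars for the mean ± SD (n = 3). Within RNA and within footprints of each panel, all SC dots lie below all SH2 and SH3 dots, most widely for PSMB10 to PSMB7 in footprints (-5.00 against -3.43 and -3.44).

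Other genes of the MHC class I and interferon pathway were taken from a list of 20, of which 19 were tested. This list, like the pathway lists used below, was chosen with earlier results of these data known, so its counts only describe. In RNA 13 rose and 0 fell in SH2 (median 0.48), 14 rose and 0 fell in SH3 (median 0.50), and 12 rose in both, where 31.1%, 27.8% and 19.6% of all genes did. In footprints 10 rose and 2 fell in SH2 (median 0.80), and 8 rose and 0 fell in SH3 (median 0.40), where 21.0% and 16.9% of genes were called higher. The class I heavy chain HLA-B was at 107, 128 and 97.3 CPM in SC RNA, 645, 448 and 507 in SH2 and 641, 525 and 520.1 in SH3, rises of 2.27 and 2.34. IRF1, a transcription factor of interferon responses, went from 25.6, 33.1 and 26.7 CPM to 95.2, 88.3 and 93.8 in SH2 and 70.0, 69.1 and 66.1 in SH3, rises of 1.70 and 1.26. HLA-F, HLA-C and ERAP1 rose as well, by 3.73 and 3.23, 1.92 and 1.74, and 0.82 and 1.29 in SH2 and SH3. The transporter TAP1 rose less, by 0.46 and 0.42. HLA genes are near-identical in parts, and the treatment of reads shared between them is not given in the sources used here. Summed RNA of leukocyte and endothelial marker genes was 6.22 to 8.20 CPM in SC, 5.94 to 8.63 in SH2 and 3.91 to 5.64 in SH3. Their summed footprints were 6.75 to 13.5 CPM in SC, 11.3 to 14.4 in SH2 and 7.53 to 10.5 in SH3. Of the 3 tested in RNA, PTPRC was lower in both hairpins and the others were not called. In SH2 2 of the 3 RNA values were above 0, and in SH3 1 was. The part of other cells in these changes was not tested.

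Most of the called genes of the constitutive core were lower than in SC. In RNA 1 of its 14 genes rose and 5 fell in SH2 (median -0.18), and 0 rose and 4 fell in SH3 (median -0.14), near the background, where 30.4% and 25.2% of genes were called lower. In footprints 1 rose and 3 fell in SH2 (median -0.24), also near the 23.2% of genes called lower, and 0 rose and 8 fell in SH3 (median -0.40), where 19% of genes were called lower. The 8 were PSMA2, PSMA3, PSMA4, PSMA7, PSMB1, PSMB2, PSMB6 and PSMB7. All 14 values in SH3 footprints were below 0, beside 50.9% of all genes. Summed over the 14 genes, footprints were at 4317, 4425 and 4399 CPM in SC, 3837, 3766 and 3814 in SH2 and 3287, 3375 and 3278 in SH3. The 3 groups did not overlap, with SC highest and SH3 lowest. Summed RNA was 2809 ± 105, 2597 ± 66.5 and 2511 ± 83.2 CPM in SC, SH2 and SH3 (SD, n = 3 each). The count of core genes that fell in SH3 footprints was 5 without SC replicate 3 or without SH3 replicate 3, and without SH3 replicate 1 it was 6, with 11 of 14 values below 0. Scaling by plain library totals, an alternative chosen after seeing the data, left 6, with 13 of 14 values below 0. That scaling moved the median RNA change of all genes to 0.11 in SH2 and 0.12 in SH3, and 3 and 2 core genes then fell in RNA.

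**Figure D3:**
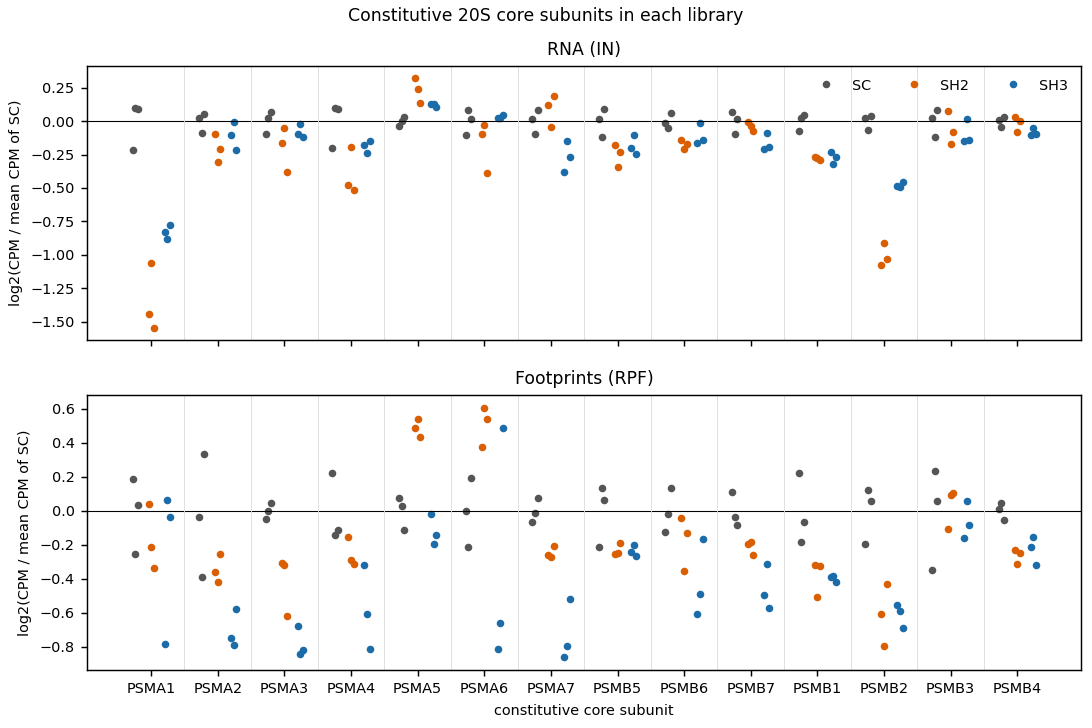
Each of the 14 constitutive core genes in each library as log2 of its CPM over its mean CPM in SC (vertical axis), RNA above and footprints below, with genes along the horizontal axis and a dot for each library. In SH3 footprints most genes lie below the SC level, while PSMA5 and PSMA6 stand above it in SH2 footprints.

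In the alpha ring, which gates the barrel, the genes differed from each other. PSMA3 RNA was at 175, 191 and 196 CPM in SC, 167, 181 and 144 in SH2 and 176, 184 and 173 in SH3, and was not called. Its footprints were at 483, 498 and 516 CPM in SC, 403, 400.0 and 325 in SH2 and 312, 279 and 283 in SH3. The groups were separate, in the order SC, SH2, SH3. The footprints fell by 0.41 in SH2 (edgeR adjusted p 0.0165, up to 0.102 and lost without SC replicate 3 or SH2 replicate 3) and by 0.78 in SH3 (edgeR: SE 0.13, adjusted p 0.000296). PSMA7 footprints were at 512, 531 and 564 CPM in SC, 448, 445 and 465 in SH2 and 295, 308.5 and 375 in SH3, also separate in that order. They fell by 0.71 in SH3 (edgeR: SE 0.13, adjusted p 0.000542), while the SH2 value of -0.24 was not called. PSMA2 and PSMA4 fell in SH3 footprints by 0.72 and 0.57 (edgeR adjusted p 0.00665 and 0.00812). PSMA2 lost its call without SC replicate 3 (edgeR adjusted p 0.0603) and PSMA4 without SH3 replicate 3 (0.0582). PSMA4 also fell in SH2 RNA, by 0.39 (edgeR adjusted p 0.00677), and PSMA7 in SH3 RNA, by 0.26 (edgeR adjusted p 0.0371, up to 0.143, lost in 5 of 12 alternatives, among them without SC replicate 3 and without SH3 replicate 1 or 3). PSMA6 was not called. Its SH2 footprints, at 13.3, 15.6 and 14.9 CPM, lay above the 10.2, 8.85 and 11.7 of SC, a value of 0.49 (edgeR adjusted p 0.156) at 21 to 67 counts per library in these groups.

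PSMA5 was the 1 core gene that rose. Its RNA was at 197, 202 and 206 CPM in SC, 252, 237 and 222 in SH2 and 220.1, 220 and 217 in SH3. Both hairpins lay above SC, and the rise in SH2 was 0.24 (edgeR adjusted p 0.0254, lost in 6 of 12 alternatives, among them without each SC replicate in turn and without SH2 replicate 1, with values up to 0.102). Its footprints were at 236, 228 and 206 CPM in SC, 313, 325 and 302 in SH2 and 221, 196 and 203 in SH3. SH2 stood alone above SC and SH3, with a rise of 0.49 (edgeR: SE 0.12, adjusted p 0.00443), and it differed from SH3 by 0.61 (edgeR: SE 0.12, adjusted p 0.00253).

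PSMA1 had the lowest RNA change of the members in both hairpins. Its RNA was at 41.7, 51.8 and 51.6 CPM in SC, 17.8, 23.2 and 16.6 in SH2 and 27.2, 26.2 and 28.2 in SH3. The 3 groups did not overlap, with SH2 lowest. The RNA fell by 1.33 in SH2 (edgeR: SE 0.13, adjusted p 1.73e-06) and by 0.83 in SH3 (edgeR: SE 0.13, adjusted p 0.000149), and both calls held in each alternative. PSMA1 footprints overlapped between all groups, at 17.2, 12.6 and 15.4 CPM in SC, 15.6, 13.1 and 12.0 in SH2 and 8.78, 15.8 and 14.7 in SH3, and their changes of -0.19 in each hairpin were not called.

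Of the structural beta genes, PSMB2 fell most. Its RNA was at 157, 147 and 159 CPM in SC, 73.2, 82.0 and 75.5 in SH2 and 110.4, 109.5 and 112.5 in SH3, with no overlap. The fall was 1.00 in SH2 (edgeR: SE 0.09, adjusted p 4.36e-07) and 0.48 in SH3 (edgeR: SE 0.08, adjusted p 0.000351). PSMB2 footprints were at 213, 265 and 254 CPM in SC, 161, 141 and 181 in SH2 and 166, 163 and 152 in SH3. They fell by 0.60 (edgeR: SE 0.14, adjusted p 0.00240) and 0.61 (edgeR: SE 0.14, adjusted p 0.00324), so that the hairpins differed in RNA (by -0.53, edgeR adjusted p 0.000314) while their footprint ranges overlapped. PSMB1 fell in RNA by 0.28 and 0.27 and in footprints by 0.38 and 0.40. Its SH3 calls were lost without SC replicate 3 in RNA (edgeR adjusted p up to 0.0846) and in 7 of 13 alternatives in footprints (up to 0.129), among them without SC replicate 1 or 3 and without each SH3 replicate in turn. The SH2 footprint call was lost without SC replicate 1 or 3 and without SH2 replicate 2 or 3 (up to 0.134). PSMB3 and PSMB4 were not called in any comparison with SC.

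Cap genes changed in both directions. In RNA 3 of its 17 genes rose and 6 fell in SH2 (median -0.11), and 5 rose and 3 fell in SH3 (median 0.11). In footprints 2 rose and 6 fell in SH2 (median -0.24), and 2 rose and 3 fell in SH3 (median -0.05). All genes were called higher and lower in 31.1% and 30.4% in SH2 RNA, 27.8% and 25.2% in SH3 RNA, 21.0% and 23.2% in SH2 footprints and 16.9% and 19% in SH3 footprints. Summed cap footprints were 7797 ± 506 CPM for SC, 6502 ± 178 for SH2 and 6737 ± 202 for SH3 (SD, n = 3 each). Much of this drop came from PSMD2. Its footprints averaged 2147 ± 403 CPM for SC, 1326 ± 140 for SH2 and 1355 ± 35 for SH3. Of the other cap genes some fell as well, some rose and the rest were not called, so the sum does not stand for the cap as a whole.

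Among the ATPases that unfold substrates, PSMC1 fell in both measures. PSMC1 RNA stood at 247, 240 and 252.5 CPM in SC, 189, 206 and 192 in SH2 and 206, 219.9 and 211 in SH3. PSMC1 footprints were at 561, 510 and 518 CPM in SC, 316, 316 and 291 in SH2 and 359, 391 and 329 in SH3. In both measures the hairpin libraries all lay under SC. The footprints fell by 0.78 in SH2 (edgeR: SE 0.12, adjusted p 0.000121) and by 0.56 in SH3 (edgeR: SE 0.12, adjusted p 0.00246), and the RNA by 0.33 and 0.21. The SH3 RNA call was lost in 7 of 12 alternatives, among them without each SC replicate in turn and without SH3 replicate 1 or 3 (edgeR adjusted p up to 0.219). PSMC4 went up in RNA, from 181, 185 and 179 CPM to 254, 247 and 253 in SH2 and 220, 257 and 232 in SH3. Its RNA rose by 0.47 (edgeR: SE 0.09, adjusted p 0.000350) and 0.38 (edgeR: SE 0.09, adjusted p 0.00228), while its footprint changes were -0.04 and 0.00, not called. PSMC2 RNA was at 147, 146 and 142 CPM in SC, 163, 159 and 149 in SH2 and 168.5, 173.5 and 168 in SH3. It rose by 0.23 in SH3 (edgeR adjusted p 0.0288, up to 0.131), a call lost in 7 of 12 alternatives, among them without each SC or SH3 replicate in turn. Its footprints, at 371, 411 and 388 CPM in SC, 299, 299.5 and 289.8 in SH2 and 330.2, 342 and 322 in SH3, lay under SC in both hairpins and fell by 0.40 in SH2 (edgeR: SE 0.12, adjusted p 0.0120, kept in 13 of 13 alternatives). PSMC3 RNA fell by 0.39 and 0.25, the latter lost in 5 of 12 alternatives, among them without SC replicate 3 and without SH3 replicate 1 or 3 (edgeR adjusted p up to 0.136), and PSMC6 was not called in either measure.

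PSMD2, the scaffold of the cap's base that binds ubiquitin-like domains, was the most counted member of the non-ATPase group in the RNA libraries and fell in both measures. PSMD2 RNA stood at 1679, 1321 and 1520 CPM in SC, 1018, 946 and 1014 in SH2 and 1218, 1139 and 1078 in SH3. PSMD2 footprints were at 1689, 2447 and 2306 CPM in SC, 1166, 1422 and 1391 in SH2 and 1340.0, 1395 and 1330 in SH3. No hairpin library reached the lowest SC library, in either measure. The RNA fell by 0.60 (edgeR: SE 0.10, adjusted p 0.000180) and 0.40 (edgeR: SE 0.10, adjusted p 0.00502), and the footprints by 0.69 (edgeR: SE 0.14, adjusted p 0.00115) and 0.66 (edgeR: SE 0.14, adjusted p 0.00224).

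PSMD4, a ubiquitin receptor of the cap, rose in both. Its RNA went from 166, 192.5 and 189 CPM in SC to 330.3, 293 and 310 in SH2 and 259, 300.3 and 275.5 in SH3, rises of 0.77 (edgeR: SE 0.10, adjusted p 1.28e-05) and 0.61 (edgeR: SE 0.10, adjusted p 0.000149) with no overlap. Its footprints went from 284, 241 and 256 CPM to 332, 379 and 328 in SH2 and 313, 368 and 317 in SH3. They rose by 0.41 and 0.35, calls lost without SC replicate 3 or SH2 replicate 2 in SH2 (edgeR adjusted p up to 0.0748) and in 7 of 13 alternatives in SH3, among them without SC replicate 2 or 3 and without SH3 replicate 2 or 3 (up to 0.186). PSMD3, a lid subunit, rose by 0.36 in SH2 RNA (edgeR adjusted p 0.00267, kept in 12 of 12 alternatives), with 0.21 in SH3 (edgeR adjusted p 0.0528). It rose in footprints from 189.9, 220.3 and 199 CPM in SC to 282, 351 and 340 in SH2 and 227, 295 and 282 in SH3, by 0.68 (edgeR: SE 0.14, adjusted p 0.00119) and 0.41 (edgeR adjusted p 0.0352). The SH3 call was lost without SC replicate 1 or 3 and without SH3 replicate 2 or 3 (up to 0.144). The lid subunit PSMD7 differed between the hairpins. PSMD7 RNA stood at 108, 110.2 and 104 CPM in SC, 60.2, 78.4 and 63.7 in SH2 and 103, 110.2 and 106 in SH3. SH3 overlapped with SC, and SH2 lay under both, with a fall of 0.67 (edgeR: SE 0.10, adjusted p 7.81e-05), and footprints fell by 0.55 in SH2 (edgeR: SE 0.13, adjusted p 0.00237). PSMD14, the deubiquitinase of the lid, fell in SH3 footprints by 0.43 (edgeR adjusted p 0.0111, 0.0638 without SH3 replicate 3), from 317, 333 and 320.4 CPM in SC to 240.0, 255 and 225 in SH3.

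PSMD1, the larger scaffold of the base, fell by 0.39 in SH2 RNA, and the lid subunit PSMD12 by 0.54 (edgeR adjusted p 0.00212 and 0.000496), while their SH3 values were not called. PSMD12 footprints fell by 0.33 in SH2 (edgeR adjusted p 0.0392), a call lost in 9 of 13 alternatives, among them without each SC or SH2 replicate in turn (up to 0.164). PSMD13 and PSMD11, also of the lid, rose in SH3 RNA by 0.28 and 0.21 (edgeR adjusted p 0.0133 and 0.0457). PSMD13 lost its call without SH3 replicate 2 or 3 (up to 0.106), and PSMD11 in 9 of 12 alternatives, among them without each SC or SH3 replicate in turn (up to 0.186). The ATPase PSMC5 fell by 0.35 in SH2 footprints (edgeR adjusted p 0.0212), a call lost without SC replicate 3 and without each SH2 replicate in turn (up to 0.0672). PSMD6 and PSMD8 were not called against SC.

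Of the chaperones that build the cap's base, PSMD5 RNA rose by 0.25 in SH2 and 0.31 in SH3. The SH2 call was lost in 5 of 12 alternatives (edgeR adjusted p up to 0.132), among them without SC replicate 1 or 3 and without SH2 replicate 1 or 2. The SH3 call was lost without SC replicate 1 and without SH3 replicate 2 or 3 (up to 0.0573). PSMD10, also known as gankyrin, stood at 67.3, 71.8 and 73.3 CPM in SC RNA, 81.0, 75.6 and 70.7 in SH2 and 48.9, 52.0 and 52.0 in SH3. SH3 lay under all other libraries, with a fall of 0.47 (edgeR: SE 0.09, adjusted p 0.000624). In footprints PSMD5 in SH2 (0.33) and PSMD10 in SH3 (-0.35) reached an unadjusted p of 0.0369 and 0.0484 in edgeR's test and were not called. PSMD9 was not called in either measure.

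Of the other activators, the PA28 gene PSME2 rose in SH3 RNA by 0.32, with 175, 183 and 184 CPM in SC, 191, 196 and 184 in SH2 and 226, 236 and 216 in SH3. Its partner PSME1 and the PA200 gene PSME4 were not called. PSME3, which forms the nuclear activator, fell in SH2 footprints by 0.38 (edgeR adjusted p 0.0360, up to 0.138), a call lost in 6 of 13 alternatives, among them without SC replicate 1 or 2 and without SH2 replicate 2 or 3. PSMF1, coding for the proteasome regulator PI31, was at 125, 109.7 and 116 CPM in SC RNA, 180, 165 and 178 in SH2 and 156, 178 and 169 in SH3, above SC in each hairpin library. The RNA rose by 0.58 (edgeR: SE 0.09, adjusted p 8.56e-05) and 0.52 (edgeR: SE 0.09, adjusted p 0.000279), and the footprints by 0.67 in SH2 (edgeR: SE 0.15, adjusted p 0.00209), with 0.34 in SH3 (edgeR adjusted p 0.0956).

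Chaperones of the 20S core moved unlike each other. PSMG1 and PSMG2 work as a pair that starts the alpha ring. PSMG1 RNA was at 80.4, 81.8 and 82.3 CPM in SC, 42.6, 51.2 and 43.2 in SH2 and 51.9, 60.2 and 56.5 in SH3. Its footprints were at 83.9, 76.7 and 74.0 CPM in SC, 44.1, 31.2 and 33.7 in SH2 and 37.5, 44.9 and 41.4 in SH3. SC stood apart in both measures, and the hairpins overlapped in footprints. PSMG1 RNA fell by 0.83 (edgeR: SE 0.10, adjusted p 8.05e-06) and 0.54 (edgeR: SE 0.10, adjusted p 0.000483), and its footprints by 1.12 (edgeR: SE 0.16, adjusted p 5.38e-05) and 0.92 (edgeR: SE 0.16, adjusted p 0.000483), the lowest footprint changes of the members in both hairpins. PSMG2 RNA fell by 0.40 in SH2 (edgeR adjusted p 0.00138) and 0.23 in SH3 (edgeR adjusted p 0.0410, up to 0.197 and lost in 6 of 12 alternatives, among them without SC replicate 1 or 3 and without SH3 replicate 1 or 3), while its footprint changes were 0.44 and -0.04, not called. The SH2 footprint value had an adjusted p of 0.0850, and of 0.0414 with the replicate number as a block (edgeR). PSMG4 RNA rose in SH2 by 0.60 (edgeR: SE 0.14, adjusted p 0.00186), from 23.3, 17.5 and 21.2 CPM in SC to 35.5, 28.1 and 30.2. PSMG3 was not called, from 14 to 81 footprint counts per library.

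Translational efficiency sets the change in footprints against that in RNA. In SH2 2 members rose and 2 fell, where 3.90% of 12531 genes were called (1.44% higher, 2.46% lower). In SH3, 0 rose and 1 fell, where 0.686% were called (0.375% higher, 0.311% lower). No member was called in both hairpins, beside 0.415% of genes in the same direction (0.231% higher, 0.184% lower). An unadjusted p under 0.05 was reached by 11 of 46 members in SH2 (23.9%) and 9 in SH3 (19.6%), beside 17.9% and 12.6% of all genes. PSMA1 rose in SH2, since its RNA was lower while its footprints were not called: log2 footprint to RNA was -1.28, -2.04 and -1.74 in the SC lysates, -0.19, -0.83 and -0.47 in SH2 and -1.63, -0.74 and -0.94 in SH3. SH2 lay above SC, and SH3 overlapped with SC. The rise was 1.12 (edgeR: SE 0.26, adjusted p 0.0188), and the SH3 value was 0.65 (edgeR adjusted p 0.288). PSMG2 rose in SH2 by 0.84 (edgeR: SE 0.21, adjusted p 0.0305), from -1.32, -0.39 and -1.14 in SC to -0.25, -0.09 and 0.05. PSMC2 and PSMC4, both ATPases, fell in SH2 by 0.52 (edgeR: SE 0.12, adjusted p 0.0224) and 0.52 (edgeR: SE 0.14, adjusted p 0.0433). PSMC2 ratios were 1.33, 1.50 and 1.45 in SC and 0.87, 0.92 and 0.96 in SH2. PSMA3 fell in SH3 by 0.69 (edgeR: SE 0.15, adjusted p 0.0363), from 1.46, 1.39 and 1.39 in SC to 0.83, 0.60 and 0.71.

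None of these 5 efficiency calls held in all 14 alternatives, and with the lysate as a block none was called. PSMA1 lost its call in 4, among them without SC replicate 3 and without SH2 replicate 1 or 3, with adjusted p-values up to 0.0908. PSMG2 lost it in 7, among them without SC replicate 1 or 3 and without each SH2 replicate in turn (up to 0.155). PSMC2 lost it in 6, among them without SC replicate 3 and without SH2 replicate 1 or 3 (up to 0.103). PSMC4 lost it in 10, among them without each SC or SH2 replicate in turn (up to 0.202). PSMA3 lost it in 6, among them without SC replicate 2 or 3 and without each SH3 replicate in turn (up to 0.289). Median efficiency changes of the core were 0.00 in SH2 and -0.21 in SH3, those of the cap -0.10 and -0.15, and those of all genes -0.02 and -0.04. In SH3, 12 of 14 core genes and 14 of 17 cap genes had a value below 0, as had 37 of all 46 members and 54.8% of all genes tested. The immunoproteasome genes were not called, with medians of 0.09 and -0.06.

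**Figure D4:**
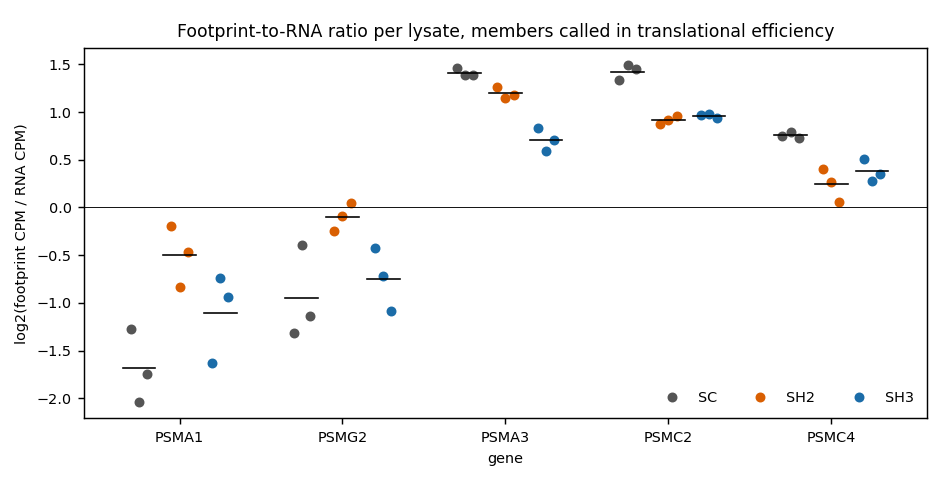
Log2 ratio of footprint CPM to RNA CPM (vertical axis) in each lysate for the 5 members called in translational efficiency, with lines at the group means. PSMA3 falls from 1.39 to 1.46 in SC to 0.60 to 0.83 in SH3, while PSMA1 spreads over -2.04 to -1.28 within SC alone.

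The ratio itself is given for SC as a description. Whether reads were counted over coding or whole transcripts is not given in the sources used here, so part of a gene's ratio can come from its untranslated length. In SC, 39 of the 46 members lay above the median log2 ratio of -0.26 over 11633 genes with a mean RNA count of at least 10, and the members' median was 0.54. All 17 cap genes lay above it (median 0.81), as did 12 of 14 core genes (median 0.58). Group medians were 1.10 for the ATPases, 0.81 for the other cap subunits, 0.87 for the structural beta genes, 0.44 for the catalytic beta genes, 0.15 for the alpha ring, 0.21 for the immunoproteasome genes and -0.71 for the 20S chaperones. Role groups overlapped. PSMB1 stood at percentile 98.5 of all genes, PSMC2 and PSME1 at 97.9 and PSMA3 at 97.8. PSMA1 was the lowest member, at percentile 11.8, in the same ring as PSMA3, and PSMG3 (21.6), PSMD9 (23.7), PSMG2 (27.2) and PSMA6 (30.8) were also low. In RefSeq, 21 members have a pseudogene named after them and 5 an antisense gene, none of which is a row of the deposited table, and the treatment of reads shared with such copies is not given in the sources used here.

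**Figure D5:**
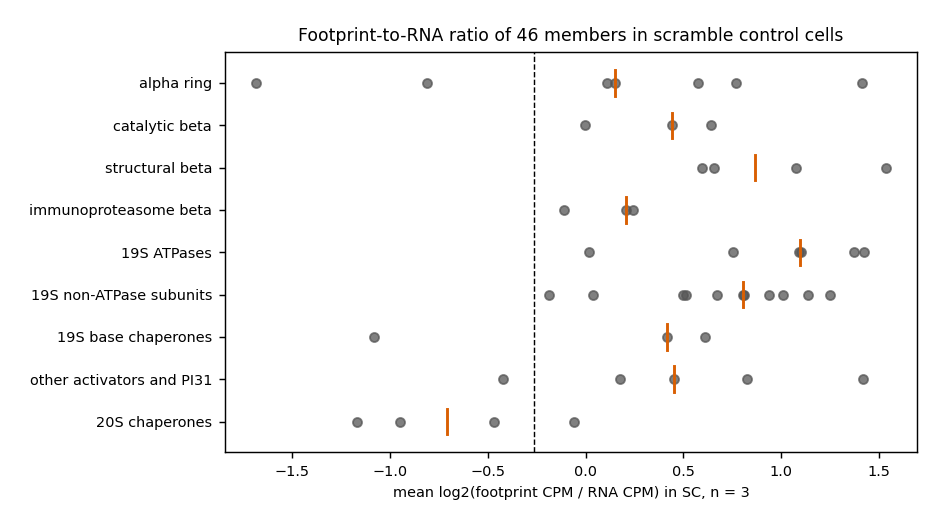
Mean log2 ratio of footprint CPM to RNA CPM in SC (horizontal axis) of the 46 members, one dot each, by role group, with an orange bar at each group's median and a dashed line at the median of all genes, -0.26. The ATPases lie to the right (median 1.10), and the 20S chaperones to the left (-0.71).

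Proteins that bind the proteasome without being named for it, a list of 18, were mixed as well: 5 rose and 7 fell in SH2 RNA, 7 rose and 4 fell in SH3, and 5 rose and 4 fell in both. All genes were called higher and lower in 31.1% and 30.4% in SH2 RNA, 27.8% and 25.2% in SH3 RNA, and 19.6% and 18.2% in both. In footprints 4 rose and 4 fell in SH2, and 6 rose and 4 fell in SH3. There 21.0% and 23.2% of all genes were called higher and lower in SH2, and 16.9% and 19% in SH3. USP14, a deubiquitinase of the cap, fell from 168, 173 and 171 CPM in SC RNA to 45.1, 52.5 and 42.4 in SH2 and 126, 131 and 139 in SH3, by 1.87 and 0.37. UCHL5, another cap deubiquitinase, fell by 0.90 and 0.65, and SEM1, a small lid subunit, by 0.57 and 0.99. The ubiquitin receptor ADRM1 rose by 0.75 and 0.43, and ZFAND5, a proteasome activator, by 1.05 and 0.91. Of 14 genes of the NFE2L1 axis, by which cells raise proteasome genes when the particle is inhibited, 6 rose and 2 fell in SH2 RNA, 5 rose and 1 fell in SH3, and 5 rose in both, beside 31.1%, 27.8% and 19.6% of all genes called higher. In footprints 2 rose and 2 fell in SH2, 2 rose and 1 fell in SH3, and 1 rose in both, beside the same footprint shares of all genes and 10.8% higher in both. The 5 that rose in RNA in both were the small MAF partners MAFK (1.38 and 0.47), MAFF (1.07 and 0.72) and MAFG (0.64 and 0.49), the ubiquitin-binding autophagy receptor SQSTM1 (0.94 and 0.58) and NFE2L1 itself (0.41 and 0.42).

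The hairpins were also compared with each other. In RNA 3 members were higher and 10 lower in SH2 than in SH3, where 39.3% of genes were called (18.9% higher, 20.4% lower). In footprints 4 were higher and 3 lower, where 23.8% were called (12.1% higher, 11.6% lower). In translational efficiency 0 members were called, where 0.0160% of genes were, with 6 of 46 members (13%) at an unadjusted p under 0.05, beside 11.7% of genes, and 3 called by DESeq2.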

How the data were processed

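Ribosome profiling with matched RNA was read from a table of whole-number read counts per gene deposited by the authors, with 9 RNA and 9 footprint libraries. The submitters' processing notes name Bowtie 1.2.2 and DESeq2. The genome build, annotation and counting rules are not given in the sources used here. Signal columns that, per the file headers, DESeq2 normalized were found to equal the counts over 1 size factor per library. They were not used for tests. The log2 fold changes and p-values in the authors' deposited table come from DESeq2, per the file headers, and served only for a comparison of counts of calls.

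Members, role groups and pathway lists were chosen with earlier results of these data known. Genes passing edgeR's filterByExpr were fitted with TMM scaling (R 4.3.3, edgeR 4.0.16, limma 3.58.1): 1 fit for RNA, 1 for footprints, and 1 of all 18 libraries whose interaction contrast gave translational efficiency. The quasi-likelihood test was two-sided, with Benjamini-Hochberg adjustment over all genes and a threshold of 0.05. SE is the log2 change over the root of F. The scripts were tested on simulated data. The spread between replicates (biological coefficient of variation) was 11.6% in RNA, 15.1% in footprints and 12.9% in the joint fit, and no pair of replicates agreed within sampling noise (chi-square per degree of freedom 3.38 to 56.3). A count of 0 allows up to 3 counts, for counting error only.

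Genes named were PSMB5 to PSMB10 and FBL, the highest and lowest mean change in each role group and measure, and each member called in translational efficiency. Other called members are named to account for all of them. From the pathway lists came genes called with 1 sign in SH2 and SH3. Some genes of the marker and pathway lists are not reported here. DESeq2 1.42.0 was an alternative. The labels describe RNA and footprints as parts of 1 lysate, so a block by lysate was tried for translational efficiency. Deviations of the paired libraries correlated from -0.44 to 0.42. Deviations of same-numbered SC and SH2 libraries correlated from 0.34 to 0.37 in RNA and from 0.25 to 0.30 in footprints in all 3 pairs, so those numbers were taken as pairs, from the data and not the labels, with the block as an alternative. For SH3 the correlations ran from -0.13 to 0.47, and not every pair passed 0.1. Subunit stoichiometry was not computed because lengths were not used here. Promoters are from RefSeq entries, 250 bases before the start. No entry was matched for 6 members. The hairpins keep their label names, since nothing ties them to the numbered knockdowns.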

Additional observations from a re-analysis of the deposited data

Results flagged for a closer look

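The members below differed between SH2 and SH3 by a direct test of the hairpins against each other (edgeR, adjusted p from 0.000261 to 0.0475). Values are the log2 change in SH2 minus that in SH3. No group of 3 libraries was searched for single outlying samples.

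In RNA, the members lower in SH2 than in SH3 were PSMD7 (-0.66), PSMB2 (-0.53), PSMA1 (-0.51), PSMD12 (-0.47), PSMD13 (-0.45), PSMD1 (-0.44), PSME3 (-0.34), PSMG1 (-0.30), PSME2 (-0.25) and PSMD8 (-0.23). PSMB2, PSMA1 and PSMG1 had fallen in both hairpins against SC, and by more in SH2. PSMD10 (0.57), PSMG4 (0.54) and PSMA7 (0.35) were higher in SH2.

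In footprints, PSMB9 (0.72), PSMA5 (0.61), PSMA7 (0.47) and PSMA3 (0.37) were higher in SH2 than in SH3, and PSMD7 (-0.50), PSME3 (-0.44) and PSMD13 (-0.40) were lower. PSMD7, PSMD13, PSME3 and PSMA7 differed with the same sign in both measures. Calls kept in all alternatives were 9 of 13 in RNA and 3 of 7 in footprints (PSMA5, PSMB9 and PSMD7). In RNA, PSMD8 lost its call in 9 of 12 alternatives and PSME2 in 5, both among others without SH2 replicate 1 or 3 and without each SH3 replicate in turn, and PSMD8 also without SH2 replicate 2 (edgeR adjusted p up to 0.137 and 0.113). PSMG1 lost it in 4, without SH2 replicate 1 or 3 and SH3 replicate 2 or 3 (up to 0.117), and PSME3 without SH3 replicate 2 (0.0602). In footprints, PSMA3 lost it in 8 of 13, among them without SH2 replicate 1 or 2 and without each SH3 replicate in turn (up to 0.158). PSMD13 lost it in 5, without each SH2 replicate in turn and SH3 replicate 1 or 2 (up to 0.117), PSME3 in 5, among them without SH2 replicate 2 or 3 and SH3 replicate 1 or 2 (up to 0.128), and PSMA7 without SH3 replicate 1 or 2 (up to 0.0765). The hairpins also differed in 39.3% of all genes in RNA and in 23.8% in footprints.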

How the results depend on the processing

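The members' log2 changes and counts of calls were recomputed with DESeq2-type size factors, plain library totals, no filter on low counts, the DESeq2 Wald test, a replicate block, only the groups compared, each replicate left out in turn and, for footprints, libraries thinned to 1662705 counts. The calls kept in all alternatives numbered 18 of 23 in SH2 RNA, 11 of 21 in SH3 RNA, 11 of 18 in SH2 footprints, 7 of 15 in SH3 footprints, 9 of 13 and 3 of 7 in RNA and footprints of SH2 against SH3, and 0 of 4 and 0 of 1 in translational efficiency. No called member changed direction. Pathway genes, ratios of gene pairs, summed CPM and the ratios in SC were not recomputed. PSMB7 RNA in SH2, not called at -0.04, was 0.057 with plain library totals.

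Leaving out 1 replicate left 13 members called in SH3 RNA (without SH3 replicate 3) to 18, 9 in SH3 footprints (without SH3 replicate 3) to 15, and 3 to 7 in footprints of SH2 against SH3 (3 without SH3 replicate 2). In SH2 it left 19 to 23 in RNA and 12 to 20 in footprints. For translational efficiency it left 0 to 3 in SH2, 0 to 1 in SH3 and 0 in SH2 against SH3. The 4 efficiency calls of SH2 became 7 with DESeq2, 2 with no filter, 1 with only the groups compared and 0 with the replicate block by lysate. The 1 of SH3 became 3 with DESeq2 and 0 with that block, and the 0 of SH2 against SH3 became 3 with DESeq2. The cause was not tested. With the replicate block by number, 23, 23 and 15 members were called in RNA (SH2, SH3 and SH2 against SH3), 19, 16 and 7 in footprints and 4, 1 and 0 in efficiency. Between SC and SH2, whose numbers were taken as pairs, this block changed 1 call, that of PSMG2 footprints, and no other. For SH3 the samples share only a number. There it lost 0 calls, and added 3 against SC (PSMD3 and PSME4 in RNA, PSMD10 in footprints) and 2 between the hairpins (PSMB9 and PSMC5 in RNA).

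Footprint depth, down to 1662705 counts per library, limits the members with few footprints, such as PSMG3 and PSMA1.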

Other observations

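Genes were also counted whose 3 hairpin libraries all lay outside the SC range. Of the 17 cap genes, 5 lay above and 9 below all SC libraries in SH2 RNA, against 1 above and 6 below of the 14 core genes, beside 32.5% and 31.9% of all genes. In SH3 RNA it was 8 above and 3 below for the cap and 1 and 5 for the core, beside 33.3% and 29.6%. In footprints, 2 cap genes lay above and 10 below in SH2, and 2 and 7 core genes, beside 25% and 26.3% of all genes. In SH3 footprints it was 2 and 6 for the cap and 0 and 9 for the core, beside 22.5% and 23.9%. In RNA more cap genes lay below than above SC in SH2, and more above than below in SH3. All 5 genes for other activators and PI31 lay above SC in SH3 RNA, and 1 in SH2 RNA.

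The authors' deposited table, from DESeq2, gave 9 members higher and 15 lower in SH2 RNA, 11 and 10 in SH3 RNA, 7 and 11 in SH2 footprints and 3 and 11 in SH3 footprints. Its columns on the ratio of footprints to RNA hold the same values for SH2 as for SH3 in each of the 17017 genes, so they were not used here.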
